A study of Mus musculus with 6 samples.

Results

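The proteasome genes described here are the protein-coding mouse genes whose symbols run from Psma to Psmg followed by a number, without the immunoproteasome genes Psmb8 and Psmb9 and with a mean expected count of at least 10. The rule was met by 46 of the 53947 genes measured. It used symbols and the mean over all 6 libraries, and no difference between the groups. Of the 49 protein-coding genes with such symbols, Psma8, Psmb11 and Psme2b fell under the minimum, with mean expected counts of 0.17, 4.07 and 5.97. The 46 genes comprised 7 of the 20S alpha ring, 4 noncatalytic and 3 constitutive catalytic genes of the beta ring, the induced catalytic gene Psmb10, 6 ATPase and 11 non-ATPase genes of the 19S regulatory particle, 7 assembly chaperones and 5 other regulators of the 20S particle. Psmc3ip and Psme3ip1 met the rule by symbol only, since they do not encode proteasome subunits.

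Quadriceps RNA came from mice aged 12 weeks, 3 WT and 3 HSALR, and was sequenced as total RNA after ribosomal RNA depletion. The transgene of HSALR mice is the human skeletal actin gene with some 220 CTG repeats in it. Its CUG-containing RNA sequesters the MBNL splicing factors, and the line serves as a muscle model of myotonic dystrophy type 1. The actin promoter drives the repeat in skeletal muscle fibres, whereas the RNA came from whole muscle, in which fewer cells of a type and less RNA per cell cannot be told apart. The labels give neither strain nor sex and do not state that the samples of a group are separate animals, and p-values therefore cover only the variation among these 6 samples.

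The 26S proteasome degrades proteins tagged with ubiquitin. Its 20S core is a barrel of outer alpha rings and inner beta rings, in which Psmb5, Psmb6 and Psmb7 carry the proteolytic sites, and the 19S particle caps the barrel, binds ubiquitin chains and unfolds substrates with a ring of ATPases. Interferon exchanges the catalytic subunits for induced ones, of which Psmb10 takes the place of Psmb7. In skeletal muscle the proteasome turns over sarcomeric proteins, and its activity rises in several forms of atrophy.

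Library totals lay between 11468959 and 15023710 expected counts, at which 3 counts correspond to between 0.1997 and 0.2616 CPM (counts scaled to a common total on TMM-adjusted library sizes). The small structural RNAs 7SL and 7SK took between 14.1% and 15.5% of the counts of the WT libraries, and 43.9%, 18.8% and 24.0% of those of HSALR replicates 1, 2 and 3. HSALR replicate 1 thus stood apart, and protein-coding genes held 51.7% of its counts against at least 71.7% in every other library. Of the skeletal muscle markers, 0 of 7 were called, and their summed CPM ran from 100580 to 111780 in WT and from 54717 to 100310 in HSALR. Of the macrophage and leukocyte markers, 4 of the 5 tested rose (edgeR adjusted p below 0.05), with summed CPM of 83.1 to 98.9 in WT and 125.6 to 396.8 in HSALR. Of the fibroblast markers 1 of 4 rose (Col3a1), and 0 of 4 endothelial, 0 of 3 adipocyte, 0 of 3 Schwann cell and 0 of 1 tested satellite cell markers were called.

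All 46 proteasome genes were tested, and 4 differed between the groups. Psmb10 and the assembly chaperone Psmd10 rose in HSALR muscle, and the proteasome activator gene Psme4 and the 19S scaffold gene Psmd1 fell. The 2 genes that rose are 4.35% of the members, against 4.28% of the 13576 genes tested, and the 2 that fell are 4.35%, against 7.48%. The number of calls among proteasome genes was therefore near or below that of the whole transcriptome. Without HSALR replicate 1 the counts were again 2 higher and 2 lower, beside 5.94% and 8.46% of all genes. Without HSALR replicate 2 they were 3 higher and 7 lower (10.6% and 13.0% of all genes), and without HSALR replicate 3 or any 1 WT replicate edgeR called no member. With the share of 7SL and 7SK as a covariate, which did not overlap between the groups, 0 were higher and 1 lower (2.67% and 4.22% of all genes). At an unadjusted edgeR p below 0.05 the members numbered 15, or 32.6%, against 31.9% of all genes.

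The median log2 fold change of the 46 genes was 0.06, beside 0.04 over all tested genes, with 27 positive and 19 negative values. Against the WT mean, the members' median log2 difference was -0.10 in HSALR replicate 1, 0.17 in replicate 2 and 0.08 in replicate 3. In CPM, 13 genes had all 3 HSALR values above all 3 WT values (28.3%, against 17.8% of all genes), 9 had them all below (19.6%, against 20%) and 24 overlapped. Within WT the median coefficient of variation of the proteasome genes was 4.19%, against 11.6% over all genes. The value was 11.6% for the 7 assembly chaperones and 23.9% for Psmb10, which had fewer counts than most members. No background matched for count was used. The proteasome genes' share of protein-coding counts was 0.414%, 0.417% and 0.422% in the WT libraries. It was 0.522%, 0.499% and 0.506% in the HSALR libraries, without overlap. Protein-coding genes as a whole, the denominator of that share, held 81.6%, 81.6% and 80.4% of the counts in WT and 51.7%, 76.5% and 71.7% in HSALR. Over all counts and in CPM the proteasome genes overlapped between the groups. Of all counts the share was 0.338%, 0.340% and 0.339% in WT and 0.27%, 0.382% and 0.363% in HSALR, and the members' summed CPM was 3567, 3387 and 3546 in WT and 2945, 3626 and 3221 in HSALR. On both of these, HSALR replicate 1 lay below every WT library and replicate 2 above.

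**Figure D1:**
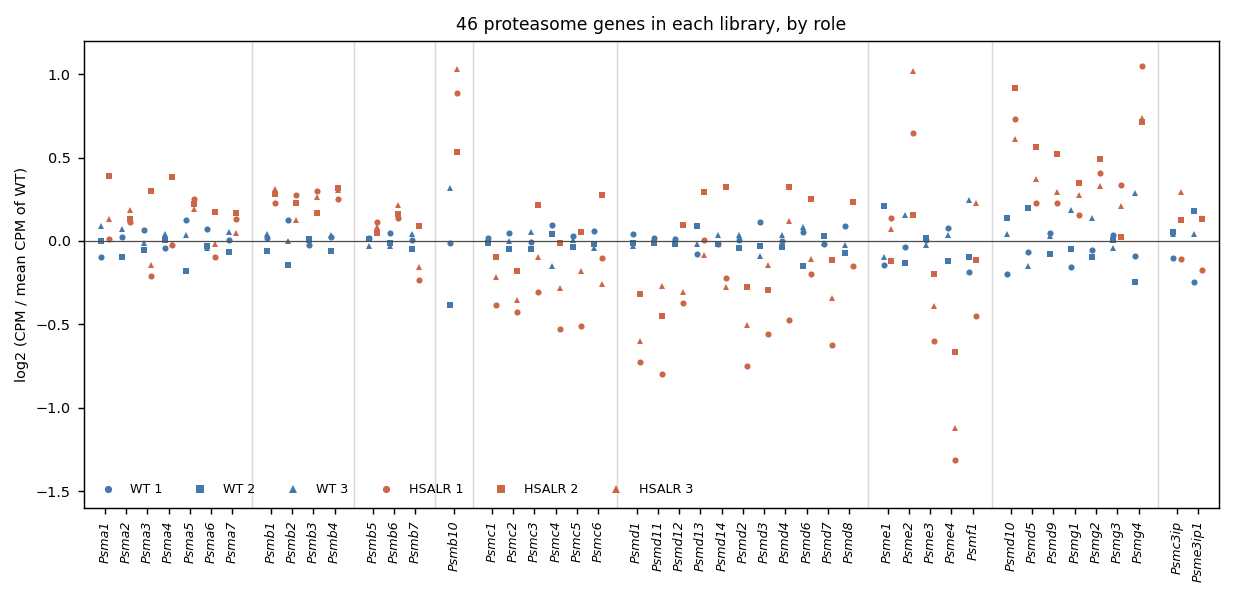
Each of the 46 proteasome genes in each of the 6 libraries, as the log2 ratio of its CPM to the mean CPM of the 3 WT libraries (vertical axis), ordered by role and divided by grey lines; blue marks are WT, orange marks HSALR, and circles, squares and triangles are replicates 1, 2 and 3. WT marks lie close to 0 for most genes, HSALR marks of the 19S genes lie mostly below 0 in replicates 1 and 3 and on both sides of 0 in replicate 2, and all 7 assembly chaperones have HSALR marks above 0.

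Levels per transcript length (TPM) in WT muscle were highest for genes of the beta ring. Psmb6 had 133.6 ± 8.10 TPM (SD, n = 3) and Psmb7 had 116 ± 2.07, and the lowest WT value of Psmb6, 124 TPM, lay above the highest of Psmb7, 118. Psmb3 with 85.4 ± 4.70 TPM, Psmb4 with 84.4 ± 2.85 and Psma7 with 81.0 ± 1.55 followed, and their WT values overlapped. Psmc3, a 19S ATPase, ranked 6 of 46 with 74.4 ± 1.26 TPM. At the low end stood the assembly chaperone Psmd10 with 2.24 ± 0.33 TPM, and Psmb10 with 7.08 ± 1.46 ranked 37 of 46. Psme4 had the most counts of any member (mean expected count 4320) but 41.2 ± 1.56 TPM, because its transcript is long, at 6296 bases.

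Among the alpha ring genes, which form the gate of the 20S barrel, 0 of 7 were called, 6 had a positive fold change and the median log2 fold change was 0.13. Psma5 had the highest, with 64.3, 52.0 and 60.3 CPM in WT and 69.9, 68.7 and 67.3 in HSALR (log2 fold change 0.22 ± 0.13 (SE), edgeR adjusted p = 0.265). Psma3 had the lowest, with 104.0, 95.8 and 98.8 CPM in WT and 86.1, 122 and 90 in HSALR (-0.0004 ± 0.16, edgeR adjusted p = 0.999). The HSALR values of Psma5 all lay above WT, whereas those of Psma3 spread on both sides of the WT range.

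The 4 beta ring genes without a proteolytic site all had positive fold changes, against 52.9% of all genes, with a median of 0.26. Of the 4, 3 had every HSALR value above WT (75%, against 17.8% of all genes). With the trend of fold change with transcript length removed, their median was 0.01, with 2 of 4 positive. Psmb4 was measured at 124, 117 and 125 CPM in WT and at 145, 152 and 151 in HSALR (0.29 ± 0.12, edgeR adjusted p = 0.138). Psmb2, the lowest of the 4, had 55.5, 46.1 and 50.9 CPM in WT and 61.5, 59.5 and 55.5 in HSALR (0.21 ± 0.13, edgeR adjusted p = 0.283), with ranges that just met. None of the 4 passed the test.

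The constitutive catalytic genes likewise gave no call. Psmb5, of the chymotrypsin-like site, had 37.2, 37.0 and 36.0 CPM in WT and 39.7, 38.0 and 39 in HSALR (0.08 ± 0.11, edgeR adjusted p = 0.644). Psmb6, of the caspase-like site, had 141, 136 and 134 CPM in WT and 150.5, 153.5 and 159 in HSALR (0.17 ± 0.12, edgeR adjusted p = 0.361). Psmb7, of the trypsin-like site, had 194, 187 and 199 CPM in WT and 164, 205 and 173 in HSALR (-0.09 ± 0.14, edgeR adjusted p = 0.676). Psmb5 and Psmb6 were slightly higher in every HSALR library, and Psmb7 was lower in 2 of 3 libraries. Over all 14 constitutive 20S genes 0 were called, 12 fold changes were positive, 7 genes (50%) had HSALR wholly above WT and 0 wholly below, against 17.8% and 20% of all genes, and the median was 0.16. At an unadjusted edgeR p below 0.05, 1 of the 14 passed (7.14%, against 31.9% of all genes).

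Psmb10 rose. This gene on chromosome 8 (GRCm39, chr8:106662362-106665077) encodes the induced subunit that replaces Psmb7 in the immunoproteasome. It had 7.29, 5.63 and 9.15 CPM in WT and 13.6, 10.7 and 15 in HSALR, and the lowest HSALR library was above the highest WT library. The log2 fold change was 0.84 ± 0.22, a 1.78-fold increase (edgeR adjusted p = 0.0437). The call held without HSALR replicate 1 (adjusted p = 0.0398) and replicate 2 (0.0213) and was lost without HSALR replicate 3 (0.131) and without WT replicate 1 (0.157), 2 (0.154) or 3 (0.0797). It was also lost once the trend with transcript length was removed (log2 fold change 0.52, adjusted p = 0.142). The leukocyte markers given above, which come from cells rich in immunoproteasome genes, rose in the same libraries, and their part in the rise of Psmb10 was not tested.

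Set against its constitutive counterpart within each library, Psmb10 reached 4.95%, 5.81% and 7.60% of the TPM of Psmb7 in WT, and 14.5%, 9.97% and 15.7% in HSALR. The mean share was 6.12% ± 1.35 (SD, n = 3) in WT and 13.4% ± 3.01 in HSALR, a difference of 1.124 on the log2 scale (two-sided exact permutation test, p = 0.1, the smallest that 3 against 3 samples allow). With expected counts in place of TPM the difference was 0.95, and RSEM's mean length of Psmb10 was 792 bases in WT and 709.7 in HSALR. The other induced subunits gave less separation. Psmb8 reached 8.38%, 6.23% and 12.2% of Psmb5 in WT and 16.3%, 8.52% and 16.2% in HSALR, and Psmb9 reached 1.22%, 0.78% and 0.95% of Psmb6 in WT and 0.866%, 1.125% and 2.61% in HSALR. Both overlapped between the groups.

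**Figure D2:**
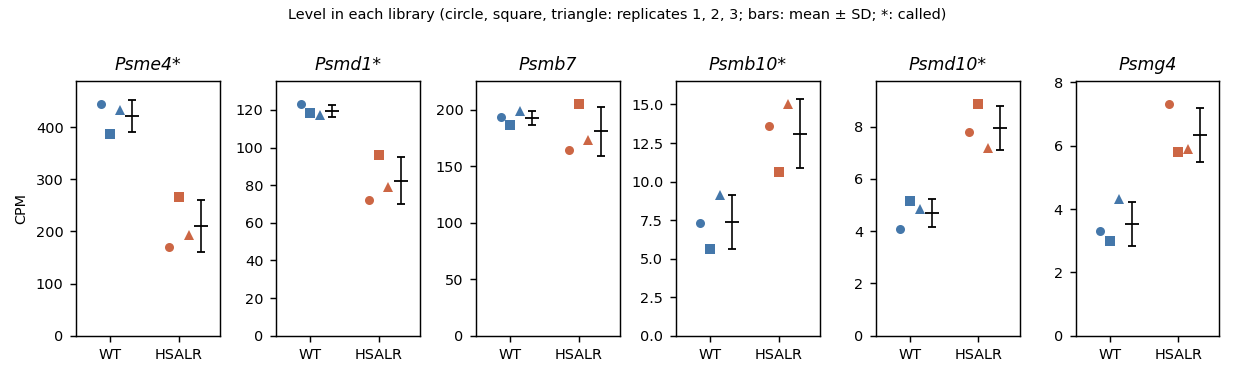
CPM (vertical axis, from 0) of Psme4, Psmd1, Psmb7, Psmb10, Psmd10 and Psmg4 in the 3 WT (blue) and 3 HSALR (orange) libraries, with the mean ± SD in black; an asterisk marks genes with an edgeR adjusted p below 0.05. The groups are separate for every gene shown except Psmb7, and HSALR replicate 2 (square) is the HSALR library nearest to WT for Psme4, Psmd1 and Psmb10.

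Fold changes of the 19S genes lay lower than those of the 20S genes. All 6 ATPase genes were negative, with a median log2 fold change of -0.21 and 0 calls (1 of 6 at an unadjusted edgeR p below 0.05, against 31.9% of all genes). Psmc2 had 81.7, 76.6 and 79.0 CPM in WT and 58.9, 69.7 and 61.8 in HSALR (-0.32 ± 0.13, edgeR adjusted p = 0.12). Psmc6 had 94.7, 89.7 and 88.5 CPM in WT and 84.8, 110.3 and 76.2 in HSALR (-0.0082 ± 0.16, edgeR adjusted p = 0.977). The HSALR values of Psmc2 all lay below WT, and those of Psmc6 did not separate.

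Of the 11 non-ATPase genes 1 was called lower and 8 were negative, with a median of -0.18. Psmd1, on chromosome 1 (GRCm39, chr1:85992097-86070048), encodes the largest 19S subunit, a scaffold to which the ubiquitin receptor Adrm1 attaches. It had 123.2, 118.4 and 117.3 CPM in WT and 72.3, 96.1 and 79.0 in HSALR, without overlap, and fell by 0.54 ± 0.14 on the log2 scale (edgeR adjusted p = 0.044). The call held without HSALR replicate 1 (adjusted p = 0.0394) or 2 (0.00655) and was lost without HSALR replicate 3 (0.127), without WT replicate 1 (0.173), 2 (0.144) or 3 (0.14), and with the length trend removed (log2 fold change -0.45, adjusted p = 0.089). Psmd2, the other large scaffold of the base, had 204.5, 198 and 208.5 CPM in WT and 121, 168 and 144 in HSALR (-0.50 ± 0.15, edgeR adjusted p = 0.0644), and Psmd11, a lid subunit, had -0.49 ± 0.15 (edgeR adjusted p = 0.0662). DESeq2 called both of them lower beside Psmd1 and Psme4, at 4 of the 46 members lower and 2 higher. Of the 13576 genes that edgeR tested, DESeq2 called 1259 lower and 982 higher. Over all 23009 genes with any count, which include many low counts, the shares were 5.48% and 4.29%. The highest of the 11 was Psmd8, a lid subunit, with 143, 128 and 132 CPM in WT and 121, 158 and 158 in HSALR (0.12 ± 0.15, edgeR adjusted p = 0.614).

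Over the 17 genes of the 19S particle, 14 fold changes were negative, 7 genes (41.2%) had HSALR wholly below WT and 0 wholly above, against 20% and 17.8% of all genes, and the median was -0.19. The size of this difference varied among the HSALR libraries. The median log2 difference from WT was -0.42 in replicate 1 and -0.25 in replicate 3 but 0.05 in replicate 2, the HSALR library with the lowest share of 7SL and 7SK. Without HSALR replicate 1 the median was -0.08, and with the share of 7SL and 7SK as a covariate it was 0.02. Every HSALR library had a higher share of 7SL and 7SK than every WT library. The parts of that share and of genotype in the 19S values cannot be told apart in these 6 samples, and were not tested further. The 20S median was positive in each HSALR library, at 0.12, 0.20 and 0.13.

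The ratio of 19S to 20S transcripts within a library does not depend on scaling between libraries. It does set longer transcripts against shorter ones, with median lengths of 1477 bases (19S) and 1046 bases (20S). The trend of fold change with transcript length, described below, was not removed from it or from the values relative to the 20S mean. The summed TPM of the 17 genes of the 19S particle was 70.8%, 72.4% and 70.4% of that of the 14 constitutive 20S genes in WT, and 53.3%, 65.6% and 62.6% in HSALR. Every HSALR library was below every WT library, with means of 71.2% ± 1.05 and 60.5% ± 6.41 (SD, n = 3 each), a difference of -0.24 on the log2 scale. Without HSALR replicate 1 the difference was -0.15. Gene by gene, all 17 genes of the 19S particle had a lower mean in HSALR relative to the 20S mean, with a median of -0.31 log2 units. Of these genes 10 were below WT in all 3 HSALR libraries and 0 above, against 22.7% and 9.8% of all genes on that scale.

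**Figure D3:**
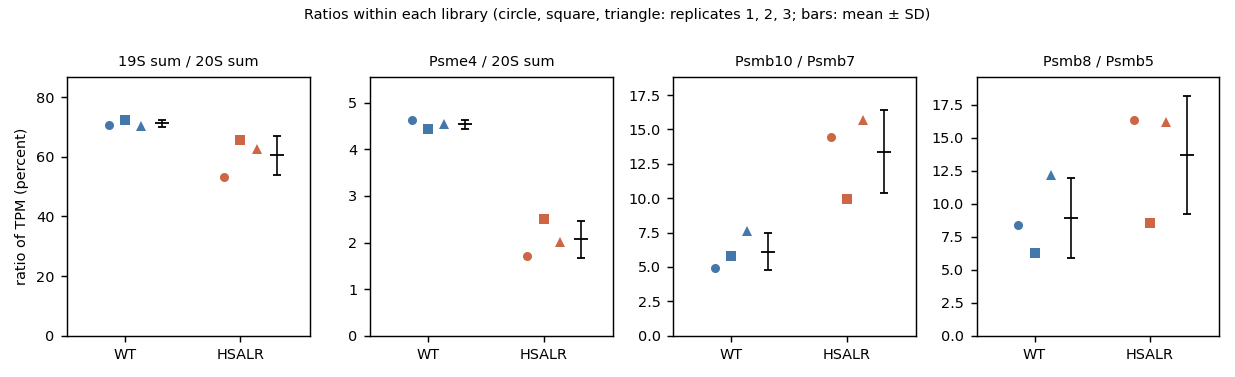
Ratios of TPM within each library, in percent (vertical axes, from 0), for the summed 19S genes over the summed 20S genes, Psme4 over the summed 20S genes, Psmb10 over Psmb7 and Psmb8 over Psmb5; blue marks are WT, orange marks HSALR, and black bars the mean ± SD of 3 libraries. The first 3 ratios do not overlap between the groups, and Psmb8 over Psmb5 does.

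The largest change of any member was in Psme4, on chromosome 11 (GRCm39, chr11:30721725-30830376). It encodes PA200, a large protein that caps the 20S barrel in place of the 19S particle and is known for the degradation of acetylated histones. Psme4 had 445, 387 and 433 CPM in WT and 169.9, 266 and 194 in HSALR. The highest HSALR library had 266 CPM against 387 in the lowest WT library. The gene fell by 1.01 ± 0.19 on the log2 scale, a 2.01-fold decrease (edgeR adjusted p = 0.015). The decrease held without HSALR replicate 1 (log2 fold change -0.87, adjusted p = 0.00594) or 2 (-1.22, 0.00256), while the adjusted p was 0.0791 without HSALR replicate 3, and 0.0872, 0.0626 and 0.0785 without WT replicates 1, 2 and 3. Against the summed 20S genes, Psme4 amounted to 4.63%, 4.43% and 4.54% of TPM in WT and 1.71%, 2.50% and 2.00% in HSALR. With the length trend removed the log2 fold change was -0.81 (adjusted p = 0.0504), and with HSALR replicate 1 also left out it was -0.66 (adjusted p = 0.0329). Of the 2107 protein-coding genes with transcripts of 4000 to 8000 bases, 373 (17.7%) fell and 55 (2.61%) rose.

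The other activators of the 20S particle gave no call. Psme2, an interferon-induced subunit of the PA28 activator, was the highest of them, with 17.6, 16.4 and 20.1 CPM in WT and 28.2, 20.1 and 36.6 in HSALR (0.65 ± 0.21, edgeR adjusted p = 0.0708). Its HSALR replicate 2 lay at the top of the WT range, and its counts were fractional in all 6 libraries, since RSEM divides reads that match more than 1 gene, and are uncertain to that extent. Psme1, with which Psme2 forms a ring, differed by 0.03 ± 0.14 on the log2 scale (edgeR adjusted p = 0.892), and Psme2 amounted to 87.1%, 61.1% and 88.0% of Psme1 in WT and to 136%, 94.0% and 139% in HSALR by TPM. Psme3, the nuclear PA28 subunit, had 25.5, 25.7 and 25 CPM in WT and 16.7, 22.1 and 19.4 in HSALR (-0.39 ± 0.14, edgeR adjusted p = 0.0951). Without HSALR replicate 2 its edgeR adjusted p was 0.0309, in a fit that called 13.0% of all genes lower. Psme3 was not called without HSALR replicate 3 or any 1 WT replicate. Psmf1, an inhibitor of the 20S particle, had -0.08 ± 0.22 (edgeR adjusted p = 0.821).

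All 7 assembly chaperones had positive fold changes, against 52.9% of all genes, with a median of 0.39, and 5 of them had HSALR wholly above WT (71.4%, against 17.8%). The median log2 difference from WT was positive in each HSALR library, at 0.33, 0.52 and 0.33, and stayed at 0.32 with the length trend removed. These genes help to build the complex but do not remain in it, and their levels were among the lowest of the 46. Psmd10, also known as gankyrin, holds an ATPase of the base during assembly. This gene on the X chromosome (GRCm39, chrX:139847687-139857477) had 4.10, 5.17 and 4.83 CPM in WT and 7.80, 8.87 and 7.18 in HSALR, without overlap, a log2 fold change of 0.76 ± 0.20 and a 1.69-fold increase (edgeR adjusted p = 0.0422). The call held without HSALR replicate 1 (adjusted p = 0.0357) and was lost without HSALR replicate 2 (0.0592) or 3 (0.0854), without WT replicate 1 (0.171), 2 (0.123) or 3 (0.132), and with the length trend removed (0.65, adjusted p = 0.0723). Psmd10 overlaps Atg4a on the opposite strand over 2896 bases. Atg4a had a mean expected count of 311 against 83.3 for Psmd10 and a log2 fold change of 0.18, and the sources used here do not state whether the counting used strand, so reads of the overlap may be uncertain.

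Psmg4, which pairs with Psmg3 to guide the alpha ring, had the highest fold change of all members without passing the test, with 3.32, 2.98 and 4.31 CPM in WT and 7.33, 5.81 and 5.91 in HSALR (0.84 ± 0.24, edgeR adjusted p = 0.0506). It was called in 5 of the 19 alternative analyses. Psmg3 was the lowest of the chaperones, with 4.88, 4.77 and 4.61 CPM in WT and 5.99, 4.84 and 5.51 in HSALR (0.19 ± 0.20, edgeR adjusted p = 0.538). Psmg2, the partner of Psmg1, had 0.41 ± 0.13 (edgeR adjusted p = 0.074), and Psmd5, Psmd9 and Psmg1 had log2 fold changes of 0.39, 0.35 and 0.26. The 2 genes that are not subunits had 0.12 (Psmc3ip) and 0.04 (Psme3ip1), with overlapping groups.

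Fold change ran with transcript length among the proteasome genes. Across the 46 genes the log2 fold change and the log2 of mean transcript length had r = -0.65 (Spearman's rho = -0.55), and without Psme4 r = -0.55, as a description over genes that share libraries. Over the 12298 protein-coding genes tested, the same relation had r = -0.22. Proteasome transcripts are short, with a median of 1346 bases against 2424 for protein-coding genes. Of the protein-coding genes with transcripts of 500 to 1200 bases, 78.8% had a positive fold change and 38.9% had HSALR wholly above WT, and of those with 1200 to 3300 bases 17.5% had HSALR wholly below.

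With the length trend of each library removed, the median over the 46 genes was -0.12 and 0 were called, against 2.56% of all genes called higher and 4.38% called lower. The 20S median became -0.06, with 5 of 14 genes positive, so its direction turned. The 19S median became -0.32, with 0 of 17 positive, and the chaperone median 0.32, with 6 of 7 positive. The positive values of the 20S genes were thus not kept once this trend was removed, whereas the 19S and chaperone medians kept their direction. The removal was partial for these genes. Across the 46 genes the fold change still ran with transcript length afterwards (r = -0.38, Spearman's rho = -0.31). The median length was 1477 bases for the 19S genes and 1046 for the 20S genes, so the remaining gap between them is not free of length. The origin of the length trend was not tested. On the log2(TPM + 0.1) scale, where the median of all genes was -0.46, the 20S median was -0.42, the 19S median -0.74 and the chaperone median -0.16, so the sign of the 20S and chaperone medians turned there, while the order of the 3 groups did not change.

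**Figure D4:**
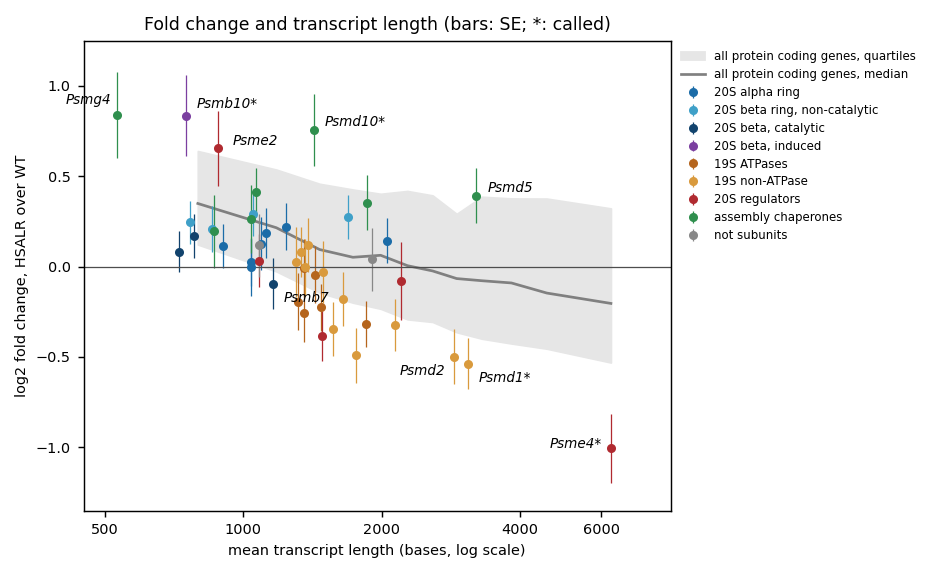
Log2 fold change of HSALR over WT (vertical axis, bars ± SE) against mean transcript length in bases (horizontal axis, log scale) for the 46 proteasome genes, coloured by role, with the median (grey line) and quartiles (grey band) of all protein-coding genes in 12 length classes; an asterisk marks called genes. The grey median descends from 0.35 in the shortest class to -0.20 in the longest, most 20S genes lie inside the band, and Psme4, at 6296 bases, lies below it.

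Genes that work with the proteasome under other names were followed in 5 lists, of which 37 of 40 genes were tested. Of 9 tested subunits and partners with other symbols, 1 fell and 7 were negative. Ecpas (chr4:58797236-58912781, GRCm39), a large scaffold that binds the 26S particle, had 406, 364 and 424 CPM in WT and 169, 267 and 195 in HSALR, without overlap, and fell by 0.92 ± 0.19 on the log2 scale (edgeR adjusted p = 0.0205, and 0.055 with the length trend removed). Of 6 ubiquitin genes and activating enzymes, 1 rose. Rps27a, which encodes ubiquitin fused to a ribosomal protein, had 114, 111 and 119 CPM in WT and 247, 172 and 152.5 in HSALR (0.73 ± 0.19, edgeR adjusted p = 0.0395, and 0.178 with the length trend removed).

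None of the 8 tested shuttle factors and segregase genes, which bring ubiquitinated proteins to the proteasome, passed the test. All 8 were negative (median -0.34), whereas 52.9% of all genes were positive. Their transcripts were long, with a median of 3183 bases against 2424 for protein-coding genes. With the length trend removed the median was -0.26, with 0 positive. The lowest p-values among them belonged to Ubqln4 (-0.64 ± 0.20, edgeR adjusted p = 0.0657) and Ubqln1 (-0.33 ± 0.13, edgeR adjusted p = 0.112). The 6 interferon-induced partners of Psmb10 were all positive (median 0.45) with 0 called. Psmb8, the induced counterpart of Psmb5, had 5.45, 3.38 and 6.84 CPM in WT and 10.8, 5.24 and 9.53 in HSALR (0.71 ± 0.33, edgeR adjusted p = 0.174), and the peptide transporter gene Tap2 had 0.50 ± 0.19 (edgeR adjusted p = 0.111). At an unadjusted p below 0.05 the shuttle factors numbered 5 of 8, the interferon-induced partners 1 of 6 and the transcription factor list, described next, 3 of 8, against 31.9% of all genes.

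Transcription factors of proteasome genes and the enzymes that activate them gave 0 calls, with 7 of 8 negative. Nfe2l1, which restores proteasome transcription when the complex is impaired and binds the antioxidant response element, had 310.4, 310.5 and 321 CPM in WT and 148, 252 and 218 in HSALR (-0.61 ± 0.20, edgeR adjusted p = 0.0725). Its groups did not overlap, and it was called in 4 of the 19 alternatives. The heat shock factor gene Hsf1 had -0.51 ± 0.16 (edgeR adjusted p = 0.0669).

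RefSeq promoter windows (GRCm38.p6), of 250 bases before to 50 after the start of a gene, were found for 39 of the 46 genes and searched on both strands. The antioxidant response element TGACNNNGC occurred in 6 of 39 (15.4%), against 14.0% of 27025 genes, and CCAAT, the box bound by NF-Y, in 14 of 39 (35.9%), against 41.1%. Both shares were near those of all genes. The alpha ring held CCAAT in 5 of 7 windows and the antioxidant response element in 0. Of the called genes only Psme4 held the element, which began 7 bases before the RefSeq start on the minus strand. The 30 bases around it are shown beside those of the 2 catalytic genes with the element, whose levels did not pass the test, with the element in capitals and each sequence on the strand of its gene:
Psme4: gcgctgcggctGCAGCGTCAccagaagagc
Psmb6: actaaagagagTGACGGAGCgctttacgac
Psmb5: acgtgaagttgTGACGTCGCggcgttgcca
On GRCm39 the Psme4 window matched chr11:30721757-30721786, inside the span of the gene in GENCODE M39. The Psmb6 window matched chr11:70416163-70416192, across the GENCODE start of the gene. The Psmb5 window matched chr14:54855481-54855510, at the start of the gene and upstream of it on the minus strand. The other 3 were in Psmd9, Psmd12 and Psmc6. The median log2 fold change was 0.04 for the 6 genes with the element and 0.08 for the 33 without.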

How the data were processed

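Groups are the genotypes that the sample titles give. The authors deposited 1 table per sample. The deposited expected counts are RSEM estimates in which reads matching several genes are divided between them, and the deposited TPM and FPKM values are those counts scaled by the authors for effective length and library. RSEM 1.3.1, Bowtie2 and the GRCm39 build are listed in the submitters' processing notes. The annotation release, read length and strand setting: not given in the sources used here. The study's methods cover its small RNA libraries, and the test used here is not from them.

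Symbols and coordinates came from GENCODE M39, which matched 53400 of 53947 genes (98.99%). Expected counts were rounded, filtered with filterByExpr (13576 genes), scaled by TMM and tested with edgeR 4.0.16 (robust quasi-likelihood F test, limma 3.58.1, R 4.3.3), with Benjamini-Hochberg adjustment over all genes. Genes with an adjusted p below 0.05 are called. The SE is the size of the log2 fold change over the square root of F. Of the expected counts, 92.5% to 93.5% per library were whole to within 0.005, zeros included. Counts of 3, given as a limit, cover counting error only. The common dispersion was 0.0535. The script was tested on simulated data. Members, role groups and related lists were chosen with earlier results of these data known. Values in every library are given for called members, the catalytic subunits and the highest and lowest of each role group, and some others were named after their values were seen. Of the related lists, called genes are named, and the 2 with the lowest p where none was called. Alternatives covered scaling (relative log expression, RLE, or upper-quartile factors in edgeR) and filters (none, or 50 counts). They covered tests (DESeq2 1.42.0, limma-voom, log2(TPM + 0.1) and log2(TPM + 1)), a replicate block and transcript length (loess, span 0.5). The rest were 7SL and 7SK share, protein-coding genes only and each library left out. No protein sequences were analysed here.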

Additional observations from a re-analysis of the deposited data

How the results depend on the processing

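HSALR against WT gave 1597 called genes, with 519 on log2(TPM + 0.1), 825 on log2(TPM + 1), 941 with the length trend removed, 935 with a covariate for 7SL and 7SK, and 166 to 3294 with 1 replicate left out. Upward calls were 36.4% of them, 48.2% with upper-quartile factors and 9.63% and 9.45% on the TPM scales, where the median of all genes shifted by -0.50 and -0.32. Proteasome genes called higher, 2 in all, numbered 4 under the stricter filter, which called 801 of 9675 genes higher. They numbered 0 on both TPM scales, with the length trend removed and with the covariate, and 0 to 3 with 1 replicate left out. Those called lower, 2 in all, numbered 1 with upper-quartile factors, 4 with DESeq2, 1 on each TPM scale, 0 with the length trend removed, 1 with the covariate and 0 to 7 with 1 replicate left out. Of all 13576 genes, 781 were lower with upper-quartile factors and 469 on log2(TPM + 0.1). With the length trend removed and HSALR replicate 1 left out, an alternative chosen after seeing the data, 1 proteasome gene was higher and 1 lower. Of the 13908 genes tested there, 1317 were called, 539 of them higher. The causes were not tested. The members' median of 0.06 became -0.52 and -0.49 on the TPM scales and -0.12 without the length trend, was 0.18 with the covariate, and ran from -0.0203 to 0.12 with 1 replicate left out. For the ratios of Psmb10 to Psmb7 and of 19S to 20S, 9 alternatives were run (expected counts, FPKM, the replicate block and each library left out). The differences ran from 0.95 to 1.32 and from -0.32 to -0.15. Only expected counts could have turned their direction. FPKM and the balanced block leave the difference as it is, and leaving out 1 library cannot turn groups that do not overlap.

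Same-numbered WT and HSALR samples had correlated deviations of 5e-04, -0.09 and 0.23, so the numbers were not taken as pairs. With a replicate block 799 of 13576 genes were called, 254 of them higher, and 1 proteasome gene was higher and 1 lower.

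Among the 36 proteasome and related genes whose log2 fold changes are given above, signs turned only for genes without a call in either analysis. Genes named without a fold change, such as Psmb3, Psma7 and Psmc3, are not among the 36. On log2(TPM + 0.1) the log2 fold changes were -0.34 for Psma5, -0.36 for Psmb2, -0.32 for Psmb4, -0.44 for Psmb5, -0.40 for Psmb6, -0.38 for Psmc3ip, -0.30 for Psmd5, -0.46 for Psmd8, -0.53 for Psme1, -0.72 for Psme3ip1, -0.31 for Psmg1, -0.16 for Psmg2 and -0.38 for Psmg3. On log2(TPM + 1) they were -0.33 for Psma5, -0.35 for Psmb2, -0.32 for Psmb4, -0.42 for Psmb5, -0.40 for Psmb6, -0.30 for Psmc3ip, -0.23 for Psmd5, -0.45 for Psmd8, -0.50 for Psme1, -0.53 for Psme3ip1, -0.23 for Psmg1, -0.14 for Psmg2 and -0.30 for Psmg3. Without the length trend they were -0.0602 for Psmb2, -0.24 for Psmb5, -0.13 for Psmb6, -0.0754 for Psmc3ip, -0.002 for Psmd8, -0.16 for Psme1 and -0.0746 for Psmg3, and with HSALR replicate 1 also left out -0.0713 for Psmb2, -0.22 for Psmb5, -0.0825 for Psmb6, -0.22 for Psme1, 0.0726 for Psmf1 and -0.12 for Psmg3. With the covariate they were 0.22 for Psma3, 0.0487 for Psmb7, 0.12 for Psmc6, -0.0812 for Psme1 and 0.16 for Psmf1. Upper-quartile factors gave 0.0568 for Psma3 and 0.0487 for Psmc6, and the stricter filter 0.0579 for Psma3 and 0.0506 for Psmc6. Protein-coding genes only gave 0.0116 for Psma3 and 0.0035 for Psmc6, and RLE factors in edgeR 0.0049 for Psma3. With 1 replicate left out values ran from -0.18 to 0.10 for Psma3, -0.18 to 0.10 for Psmc6, -0.0261 to 0.14 for Psme1, -0.0622 to 0.14 for Psme3ip1 and -0.27 to 0.079 for Psmf1. Depth and 3 samples a group limit the precision of each log2 fold change to the SE given beside it.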
